A study of Homo sapiens with 18 samples.

Results

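dCeMM-3, a compound reported to remove the protein cyclin K, was set against THZ531, a covalent inhibitor of the kinases CDK12 and CDK13 that cyclin K activates. Both were given for 5 h to KBM7, an established near-haploid human chronic myeloid leukaemia cell line. The comparison takes the 3 libraries labelled as dCeMM-3 (code Hit2) and the 3 labelled as THZ531, which are 6 of the 18 RNA libraries of the series, and every gene row of their count tables. The dCeMM-3 cells received 10 times the compound's EC50 and the THZ531 cells received 600 nM. Used beside them are 3 libraries of dCeMM-2, another reported cyclin K degrader given at the same multiple of its own EC50, and 3 of DMSO, the solvent alone. The molar dose of dCeMM-3 is not given in the labels, so the doses are not matched and a difference between the compounds cannot be told apart from a difference in dose. All groups are the same line at the same time point, and no label states whether replicate libraries stem from independent cultures, so p-values here measure the spread between libraries, which may be technical. The tables hold 58051 gene rows, of which 57447 matched the GENCODE 29 annotation and 15055 had enough counts to be tested.

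Cyclin K binds CDK12 and CDK13, and these kinases phosphorylate the tail of RNA polymerase II while it moves along genes, which keeps elongation going and keeps early polyadenylation sites inside long genes from being used. A molecular glue degrader brings its target to a ubiquitin ligase, here the DDB1 and CUL4 ligase with CDK12 as the link, so that cyclin K is destroyed, whereas an inhibitor such as THZ531 leaves the complex in place and blocks the kinase. Genes for DNA repair are the best known group that depends on CDK12, and short-lived messages such as MYC respond early when transcription is disturbed.

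Counts assigned to genes ranged from 10632587 to 15509920 in the dCeMM-3 libraries, from 12194329 to 14074155 in the THZ531 libraries and from 4598576 to 16966951 in the DMSO libraries. THZ531 replicate 1 stood apart from the other two THZ531 libraries: mitochondrially encoded genes took 12.9% of its gene counts, against 8.21% in replicate 2 and 8.17% in replicate 3. Its reads assigned to no gene feature made up 4.99%, against 8.27% and 8.18%. That share is of all reads, including those placed at several positions. Whether reads in introns count as assigned to no feature is not given. Replicates 2 and 3 of THZ531 had a chi-square of 1.43 per degree of freedom over genes, the lowest among the pairs within dCeMM-3, THZ531 and DMSO, whose highest was 18.9; they still differed by more than counting noise and were kept as 2 samples. Mitochondrial genes took 12.9% ± 2.25 of counts with dCeMM-3, 9.75% ± 2.70 with THZ531 and 5.14% ± 0.662 with DMSO (SD, n = 3 each), and the exact two-sided permutation test between the 2 compounds gave p = 0.2, where 0.1 is the smallest p that 3 against 3 libraries allow. Synthetic spike-in RNAs took 0.542% ± 0.0699 of counts with dCeMM-3, 0.531% ± 0.0992 with THZ531 and 0.179% ± 0.0200 with DMSO (exact permutation p = 0.8 between the compounds). Markers of blood cells were present: 17 of 18 reached at least 1 CPM (counts scaled to library size) with dCeMM-3, all but CD34, and 18 of 18 did with THZ531 and with DMSO. Haemoglobin genes HBA2, HBB and HBG1 were at 0 in all 3 groups, but some markers of other cell types were present. Of the 9 T cell markers, only 3 reached at least 1 CPM with dCeMM-3 (CD3D, CD3E and CD4), and CD3G, CD2 and LCK were at 0. Most of the counts with dCeMM-3 came from CD4 (26203), beside 5325 for CD3D and 126 for CD3E. The 9 markers summed to 795 to 906 CPM with dCeMM-3. Their sums were 841 to 868 CPM with THZ531 and 355 to 369 CPM with DMSO. CD79A, CD79B, PAX5, KRT8, KRT18 and EPOR also reached at least 1 CPM in all 3 groups. The strand setting of the counts is not given, so reads of genes with overlapping exons may be mixed; of the genes described below this holds, among others, for CCNK (with CCDC85C), CDK13, DDB1, HEXIM1, JUNB (with HOOK2), IER2, POLR2B, CTR9, NELFE, MED26, INTS3, MXD1, SRSF2, TNFRSF10B, FAS, MCL1, BRCA1, CDC25C, CENPA, RSAD2, TUBG1 (with RETREG3), BHLHE40 and HOXA9. In bulk RNA, fewer cells of a kind and less RNA per cell cannot be told apart.

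The 2 treatments left different RNA populations. Of 15055 genes tested, 6737 (44.7%) differed between dCeMM-3 and THZ531 past a false discovery rate (FDR) of 0.05 in edgeR's quasi-likelihood test, 2874 (19.1%) higher with dCeMM-3 and 3863 (25.7%) lower. Differences of at least 2-fold numbered 1525 (10.1%) and were more often downward: 299 genes (1.99%) were at least 2-fold higher with dCeMM-3 and 1226 (8.14%) at least 2-fold lower. The 3 libraries of one compound lay wholly on one side of the other 3 for 7333 genes (48.7%). Levels are CPM scaled by TMM, which sets the bulk of genes near a log2 fold change of 0, and fold changes are dCeMM-3 over THZ531 unless another contrast is named. When libraries were scaled by the spike-in counts, the median of all genes moved by 0.03 on the log2 scale for dCeMM-3 against THZ531, 3069 genes (20.4%) were called, 6.74% of all genes higher and 13.6% lower, and none of the 3067 genes called on both scales had the opposite direction.

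**Figure D1:**
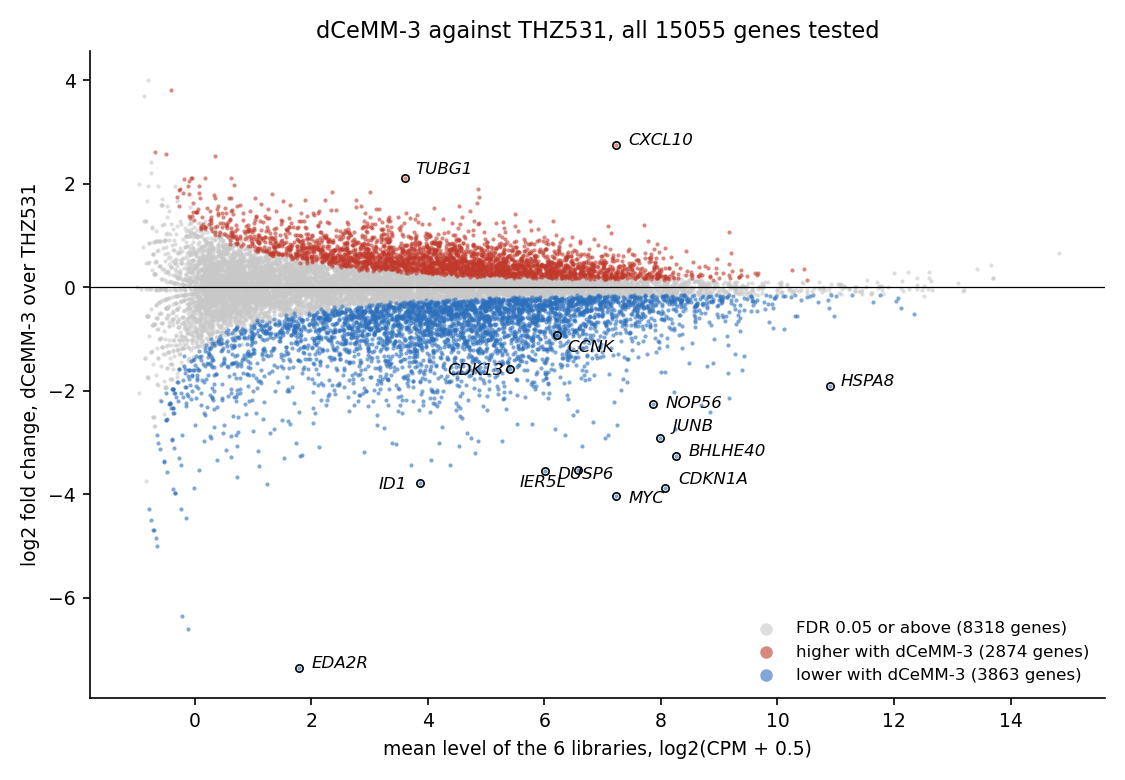
Log2 fold change of dCeMM-3 over THZ531 (vertical axis) against mean level in log2 CPM (horizontal axis) for the 15055 genes tested. Colours mark the 2874 genes higher with dCeMM-3, the 3863 lower and the 8318 that did not pass FDR 0.05. EDA2R is the lowest labelled point, MYC and CDKN1A follow it, and CXCL10 is the highest labelled point.

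Against DMSO each compound moved most genes, and both contrasts use the same 3 DMSO libraries, so their values are given side by side and not as separate evidence. With dCeMM-3, 12202 genes (81.0%) were called against DMSO, 35.9% of all genes higher and 45.1% lower, and with THZ531 11968 (79.5%), 35.8% higher and 43.7% lower. These contrasts depend on the scale. With spike-in scaling the median log2 fold change over all genes was -1.96 for dCeMM-3 and -1.94 for THZ531. On the TMM scale these medians were -0.15 and -0.10. With spike-in scaling 84.9% of genes were called with dCeMM-3, 1.12% higher and 83.7% lower, and 86.0% with THZ531, 1.32% higher and 84.7% lower. A gene near 0 against DMSO below is therefore near the middle of all genes. Levels and directions against DMSO are on the TMM scale unless the spike-in scale is named, and a gene above DMSO on the TMM scale can lie below it on the spike-in scale.

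The messages of the drug targets themselves were lower with dCeMM-3 than with THZ531. CCNK, the gene of cyclin K (chromosome 14, positions 99481169 to 99535044, GRCh38), stood at 49.5, 54.2 and 49.2 CPM with dCeMM-3, at 95.6, 95.7 and 98.9 CPM with THZ531 and at 123, 119 and 126 CPM with DMSO. All 3 groups were separate, with dCeMM-3 lowest, and the fold change was -0.93 ± 0.07 (log2, SE; 1.90-fold lower; edgeR FDR 6.9e-15). With dCeMM-2 the same gene went the other way, at 182, 179 and 182 CPM, above both THZ531 (log2 0.90 ± 0.06) and DMSO.

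CDK13 (chromosome 7, positions 39949646 to 40099580), which pairs with cyclin K as CDK12 does, had 19.99, 19.4 and 23.7 CPM with dCeMM-3, 64.3, 64.0 and 59.4 CPM with THZ531 and 109, 111 and 110 CPM with DMSO. The groups did not overlap and the gene was 2.97-fold lower with dCeMM-3 (log2 -1.57 ± 0.08, edgeR FDR 3.5e-19). CDK12 (chromosome 17, positions 39461511 to 39564907) had 41.7, 38.7 and 48.5 CPM with dCeMM-3, 67.8, 66.8 and 72.0 CPM with THZ531 and 174, 180 and 182 CPM with DMSO. It was lower with both compounds than with DMSO and lower with dCeMM-3 than with THZ531 (log2 -0.68 ± 0.07, edgeR FDR 5.7e-10). CDK12 did not differ past the threshold between dCeMM-3 and dCeMM-2 (log2 dCeMM-3 over dCeMM-2 -0.01 ± 0.08, FDR 0.90).

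Of 26 genes for the ubiquitin and NEDD8 ligase machinery of DDB1, 4 were higher (15.4%) and 13 lower (50%), with a median of -0.24. Over all genes tested the shares were 19.1% and 25.7%. With spike-in scaling 0 were higher and 7 lower. The ligase genes DDB1, CUL4B and RBX1 themselves moved little. DDB1, the adaptor of the ligase, was slightly lower with dCeMM-3 than with THZ531 (log2 -0.33 ± 0.06, edgeR FDR 4.1e-05), CUL4B, its scaffold, slightly higher (0.41 ± 0.09, FDR 0.00036), and RBX1, its RING subunit, did not pass (-0.16 ± 0.08, FDR 0.093). DDB1 and CUL4B lost their calls with spike-in scaling, at FDR 0.29 and 0.14. DCAF15 and RBM39 are the receptor and the target of another class of glue degraders. DCAF15 was at log2 -0.47 ± 0.10 (FDR 0.00015; 0.14 with spike-in scaling), and RBM39, a splicing factor, was at -0.88 ± 0.08 (FDR 8.7e-13). RBM39 had 122, 107 and 142 CPM with dCeMM-3, 228, 230 and 227 CPM with THZ531 and 313, 309 and 319 CPM with DMSO. The 14 genes listed as targets and partners also include MYC, CDKN1A, HEXIM1, BRCA1, ATR and FANCD2, which are neither drug targets nor ligase genes. Of these 14, 3 were higher with dCeMM-3 and 9 lower. Their median log2 fold change was -0.57, against a median of -0.03 over all genes tested.

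HEXIM1, which holds the elongation kinase P-TEFb in an inactive complex and is often read as a sign of P-TEFb release, separated the compounds. It had 23.5, 18.04 and 27.5 CPM with dCeMM-3, 71.0, 83.5 and 86.5 CPM with THZ531 and 26.7, 28.96 and 30.9 CPM with DMSO. THZ531 lay above DMSO on the TMM scale and dCeMM-3 did not. HEXIM1 was 3.46-fold lower with dCeMM-3 than with THZ531 (log2 -1.79 ± 0.11, edgeR FDR 1.7e-14). With dCeMM-2, HEXIM1 had 69.4, 57.2 and 48.5 CPM. That was above DMSO too (log2 1.05 ± 0.11) and below THZ531 (log2 -0.45 ± 0.11). Against DMSO the TMM values were -0.29 with dCeMM-3 and 1.496 with THZ531, and the spike-in values were -2.12 and -0.39.

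**Figure D2:**
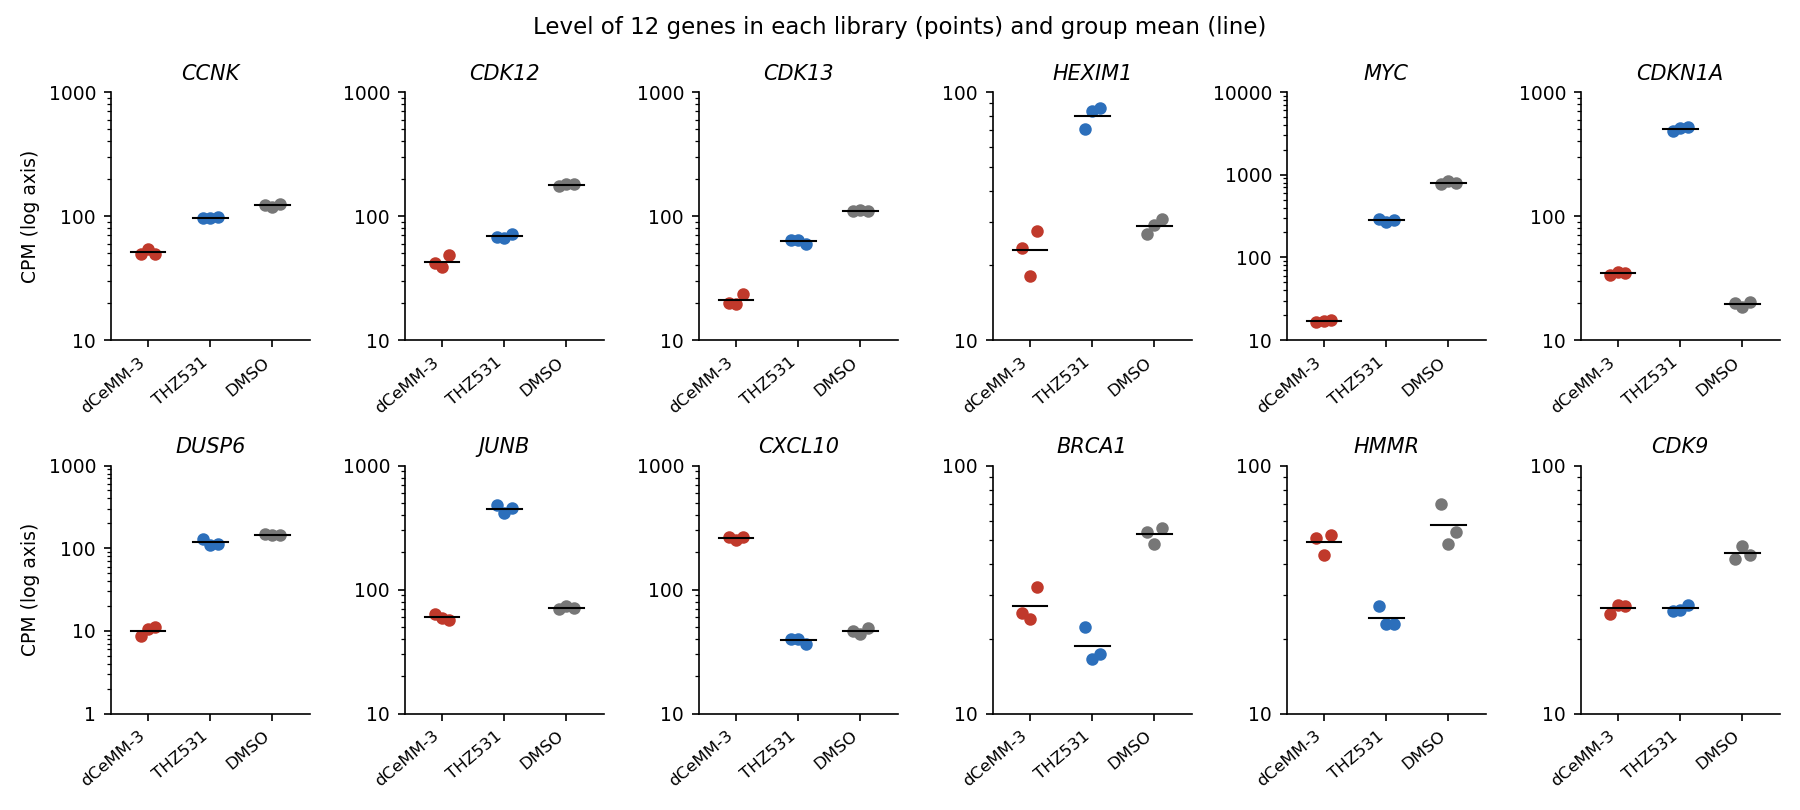
TMM-scaled CPM (log axis) of 12 genes in each library of dCeMM-3, THZ531 and DMSO; points are libraries and the line is the mean of 3. MYC and DUSP6 are lowest with dCeMM-3, CDKN1A, JUNB and HEXIM1 are highest with THZ531, CXCL10 is highest with dCeMM-3, and the libraries of both compounds overlap for CDK9.

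Genes of the elongation machinery were mostly lower with dCeMM-3. Among 32 genes for elongation kinases and regulators, 4 were higher (12.5%) and 20 lower (62.5%), beside 19.1% and 25.7% of all genes. Of the lower ones 11 were at least 2-fold lower, and the median was -0.67. ELL, a subunit of the super elongation complex, had 4.41, 4.66 and 4.53 CPM with dCeMM-3, 24.0, 23.3 and 22.7 CPM with THZ531 and 28.3, 31.9 and 29.9 CPM with DMSO. The dCeMM-3 libraries stood far below both other groups (log2 -2.37 ± 0.12 against THZ531, edgeR FDR 1.2e-19). CCNT1, the cyclin of P-TEFb, was at -1.79 ± 0.12, and CTR9, a PAF1 complex subunit, at -1.80 ± 0.08. CDK9, the kinase of P-TEFb, did not pass (0.00 ± 0.10, 95% interval -0.19 to 0.19), with 25.2, 27.5 and 27.2 CPM with dCeMM-3, 26.0, 26.1 and 27.4 CPM with THZ531 and 41.8, 47.2 and 43.7 CPM with DMSO. NELFE, a subunit of the pausing factor NELF, was higher with dCeMM-3 (log2 0.62 ± 0.11, edgeR FDR 1.3e-05).

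The polymerase itself showed a split within its own list. Of 34 tested genes for RNA polymerase II and general factors, 10 were higher (29.4%, beside 19.1% of all genes) and 9 lower (26.5%, beside 25.7%); with spike-in scaling 4 were higher and 5 lower. The large catalytic subunits were among the lower ones: POLR2A had 125, 148 and 122 CPM with dCeMM-3, 393, 411 and 417 CPM with THZ531 and 280, 345 and 315 CPM with DMSO, a difference of -1.63 ± 0.08 between the compounds (edgeR FDR 4.6e-19). THZ531 stood above DMSO for POLR2A on the TMM scale (0.38) and below it on the spike-in scale (-1.49). POLR2B was at -1.14 ± 0.07 and GTF2B, which positions the polymerase at the start site, at -2.28 ± 0.12. Among the genes higher with dCeMM-3 were GTF2E1, GTF2H1 and GTF2A2, subunits of the general factors TFIIE, TFIIH and TFIIA, at 0.83, 0.76 and 0.67 on the log2 scale.

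Mediator genes were more often lower as well. Of 32 tested 3 were higher and 17 lower (53.1%, beside 25.7% of all genes; median -0.33), with MED18 at -2.20 ± 0.16 and MED26, the subunit that contacts elongation factors, at -2.02 ± 0.16. Of 27 genes for cleavage, polyadenylation and termination 5 were higher (18.5%, near the 19.1% of all genes) and 11 lower (40.7%, beside 25.7%), with a median of -0.15, beside -0.03 over all genes. SCAF4, which restrains early polyadenylation, had 27.0, 28.1 and 33.4 CPM with dCeMM-3, 104, 103 and 90.8 CPM with THZ531 and 93.6, 104 and 104 CPM with DMSO, so that dCeMM-3 alone stood below the other groups (log2 -1.75 ± 0.09). Its paralogue SCAF8 was at -1.54 ± 0.09. Integrator ends transcription of small nuclear RNAs and of paused polymerases. Of its 14 genes 4 were higher (28.6%, beside 19.1% of all genes) and 1 lower (7.14%, beside 25.7%). With spike-in scaling 2 were higher and 1 lower, and without THZ531 replicate 1, 3 were higher. INTS3 was at 0.92 ± 0.17, INTS8 at 0.67 ± 0.08 and INTS5 at -0.91 ± 0.25. CCNE2, which overlaps INTS8 on the opposite strand, was lower (-1.40 ± 0.17).

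Splicing factors followed the same direction. Of 39 tested SR proteins and hnRNPs, 1 was higher with dCeMM-3 and 25 lower (median -0.46). TRA2B, an SR-like activator of exon inclusion, had 268, 267 and 281 CPM with dCeMM-3, 857, 864 and 862 CPM with THZ531 and 683, 629 and 665 CPM with DMSO, and differed by -1.66 ± 0.06 between the compounds (edgeR FDR 5.9e-24). Against DMSO, TRA2B with THZ531 was at 0.39 on the TMM scale and at -1.46 on the spike-in scale. SRSF2, a core SR protein, was at -1.47 ± 0.06 and SRSF7 at -1.22 on the log2 scale. With spike-in scaling no gene of this list was higher and 16 were lower.

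The immediate early genes, which growth signals and stress switch on within minutes and whose messages decay fast, had the highest share called in a common direction among the lists with at least 10 tested members. None of 39 tested was higher with dCeMM-3 and 38 were lower (97.4%, beside 25.7% of all genes), 31 of them at least 2-fold, with a median of -1.49; EGR3 was the member not called (log2 -0.56 ± 0.29, FDR 0.13). With spike-in scaling 35 were lower and none was higher, and without THZ531 replicate 1 the counts were the same, 0 and 38. Upstream stretches of JUNB and EGR1 are shown because each carries, within 120 bases of the start, a motif that was searched for. In JUNB it is the TATA box, and in EGR1 the serum response element that SRF binds. Both are given 5′ to 3′ on the gene's own strand from the RefSeq table (GRCh38.p14), ending at the base before the start, with JUNB at chr19:12791366-12791485 and EGR1 at chr5:138465359-138465478. Capitals mark TATAAA in JUNB, whose first base lies 31 bases before the start, and 2 CArG boxes in EGR1, which begin 105 and 83 bases before the start.
JUNB: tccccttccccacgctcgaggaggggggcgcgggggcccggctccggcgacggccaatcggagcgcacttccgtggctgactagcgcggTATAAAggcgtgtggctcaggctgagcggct
EGR1: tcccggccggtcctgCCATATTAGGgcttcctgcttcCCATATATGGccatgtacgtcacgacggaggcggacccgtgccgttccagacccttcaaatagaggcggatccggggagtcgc
Of the 39 genes, 30 had an entry in the table. In the 250 bases before the start, on either strand, TATAAA was present in 5 of the 30 (16.67%: FOS, FOSB, JUNB, DUSP1 and SGK1), against 5.19% of 9768 protein-coding genes tested, and a CArG box was present in 2 (EGR1 and SRF), against 1.01%. A match in these letters is a description and was not tested as a site.

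JUNB, an AP-1 subunit (chromosome 19, positions 12791496 to 12793315), had 63.1, 58.8 and 56.8 CPM with dCeMM-3, 480, 410 and 452 CPM with THZ531 and 69.5, 74.0 and 71.1 CPM with DMSO. THZ531 stood far above both other groups, and dCeMM-3 lay just below DMSO. JUNB was 7.504-fold lower with dCeMM-3 than with THZ531 (log2 -2.91 ± 0.08, edgeR FDR 3.0e-27); against DMSO it was at -0.26 with dCeMM-3 and 2.64 with THZ531 on the TMM scale, and at -2.09 and 0.80 with spike-in scaling. With dCeMM-2, JUNB had 463, 410 and 369 CPM, which did not differ from THZ531 past the threshold (log2 -0.11 ± 0.07, FDR 0.29).

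IER2, a nuclear early response factor, had 151, 143 and 144 CPM with dCeMM-3, 813, 734 and 770 CPM with THZ531 and 90.2, 108 and 104 CPM with DMSO. FOS, the partner of JUN in AP-1, had 24.1, 22.7 and 25.3 CPM with dCeMM-3, 88.2, 81.7 and 85.7 CPM with THZ531 and 10.9, 14.4 and 13.8 CPM with DMSO. Both genes lay above DMSO with either compound on the TMM scale, and higher with THZ531. The differences between the compounds were -2.40 ± 0.11 for IER2 and -1.82 ± 0.09 for FOS (edgeR FDR 1.7e-14 and 1.1e-19). On the spike-in scale the dCeMM-3 values against DMSO turned negative, at -1.30 for IER2 and -0.93 for FOS, whereas the THZ531 values stayed positive, at 1.09 and 0.86.

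EGR1 (chromosome 5, positions 138465490 to 138469315), a zinc finger factor downstream of ERK, had 20.8, 24.5 and 22.2 CPM with dCeMM-3, 46.7, 57.6 and 51.5 CPM with THZ531 and 59.0, 70.4 and 73.2 CPM with DMSO. It was below DMSO with both compounds, lowest with dCeMM-3 (log2 -1.21 ± 0.10 against THZ531, edgeR FDR 1.4e-12). ARC and IER3 were the other extreme, far above DMSO with both. ARC, best known at synapses, had 22.5, 22.6 and 21.8 CPM with dCeMM-3, 54.3, 49.995 and 56.7 CPM with THZ531 and 1.04, 0.678 and 0.383 CPM with DMSO. With spike-in scaling ARC was still higher than DMSO, by 3.05 with dCeMM-3 and 4.29 with THZ531, as was IER3, an early survival factor, by 2.56 and 4.48. The list was thus lower with dCeMM-3 than with THZ531 whether its members stood above DMSO or below it. Over the 39 genes, 11 were higher and 20 lower than DMSO with dCeMM-3 (median -0.41), and 24 higher and 11 lower with THZ531 (median 0.72); on the spike-in scale these counts were 3 and 34 with dCeMM-3 and 12 and 24 with THZ531.

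**Figure D3:**
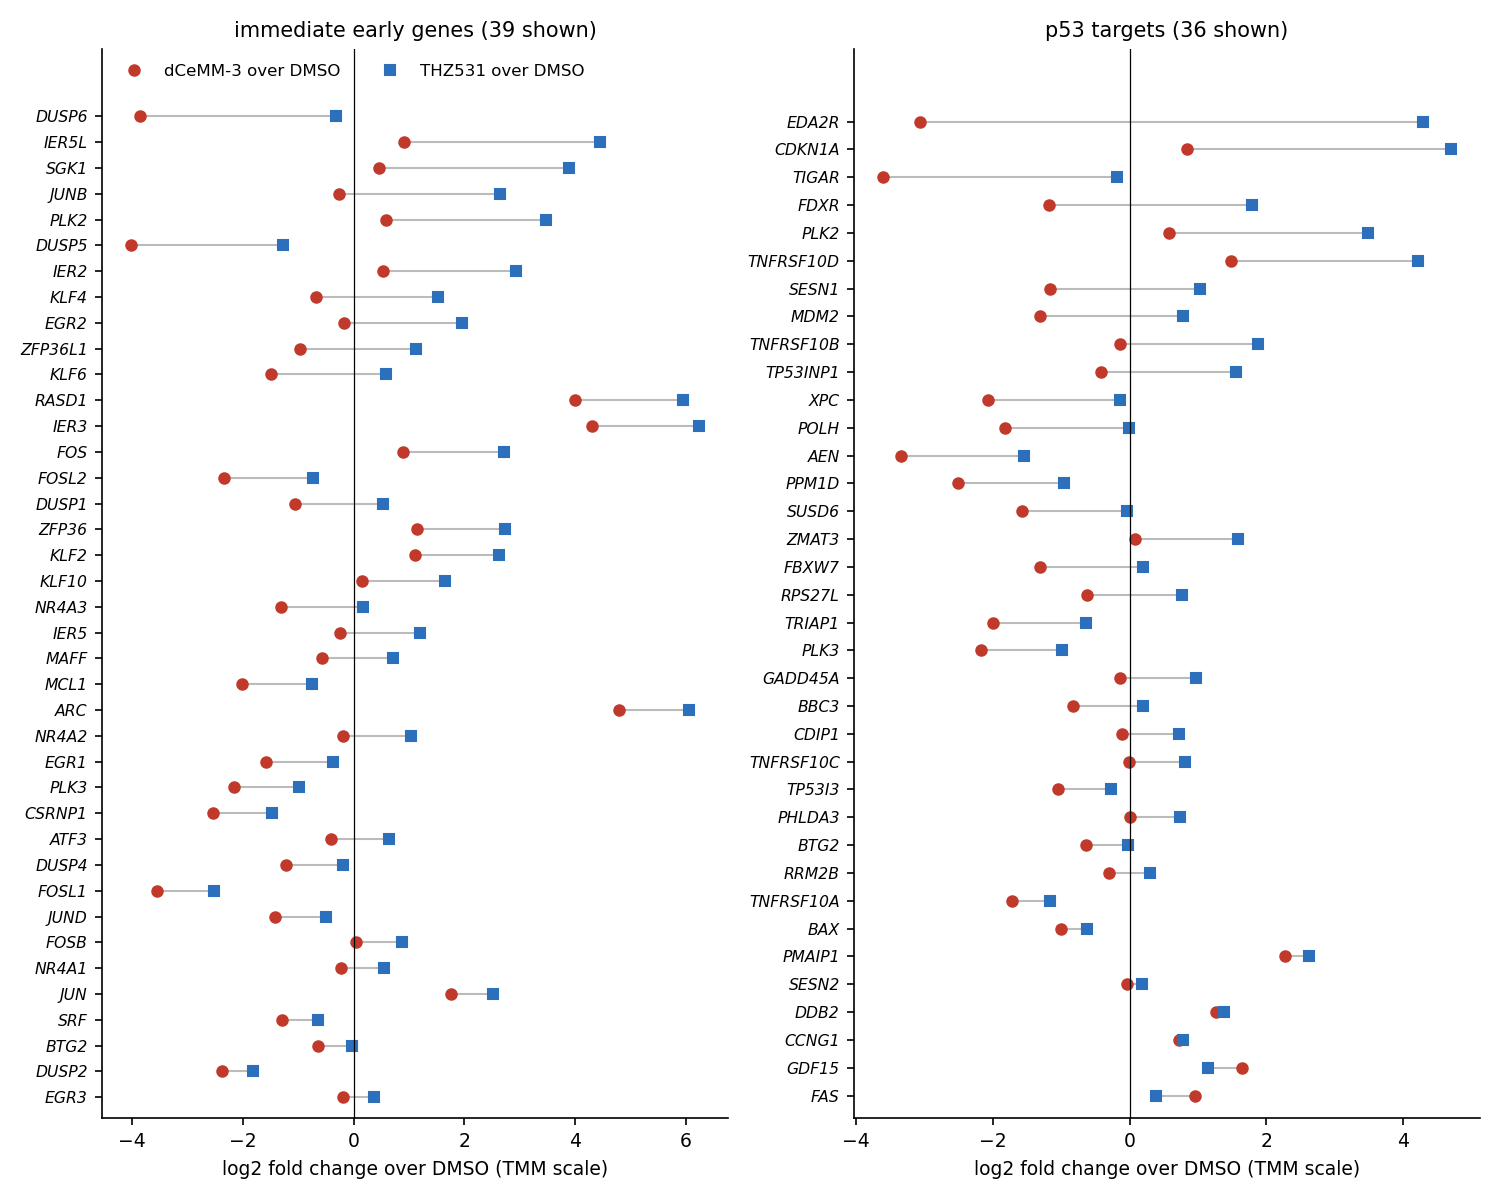
Log2 fold change over DMSO on the TMM scale for 39 immediate early genes (left) and 36 of the 37 tested p53 targets (right); circles are dCeMM-3 over DMSO, squares are THZ531 over DMSO, and a line joins the 2 values of a gene. Circles lie left of squares for most genes of both lists, with FAS and GDF15 among the exceptions in the right panel; both contrasts use the same DMSO libraries.

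The feedback genes of the ERK pathway, of which DUSP4, DUSP5, DUSP6, EGR1 and IER3 also stand in the immediate early list, were lower in 12 of 15 cases and higher in 2 (median -1.21). DUSP6, the phosphatase that switches ERK off (chromosome 12, positions 89347232 to 89353271), had 8.75, 10.47 and 11.04 CPM with dCeMM-3, 130, 108 and 113 CPM with THZ531 and 148, 145 and 146 CPM with DMSO. It was close to DMSO with THZ531 (-0.32) and 11.7-fold lower with dCeMM-3 than with THZ531 (log2 -3.55 ± 0.09, edgeR FDR 2.3e-28). SPRY2, an inhibitor of receptor signalling to RAS, was at -2.08 ± 0.16 and SPRED2 at -1.24 ± 0.10.

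MYC, the oncogene whose message has a short half-life, showed the largest fall after EDA2R among the protein-coding genes that met the naming rule. MYC had 16.6, 16.9 and 17.6 CPM with dCeMM-3, 292, 269 and 283 CPM with THZ531 and 777, 837 and 791 CPM with DMSO. It was lower than DMSO with both compounds, and 16.5-fold lower with dCeMM-3 than with THZ531 (log2 -4.04 ± 0.08, edgeR FDR 5.3e-33). dCeMM-2 left MYC at 489, 491 and 445 CPM, higher than THZ531 (log2 0.76 ± 0.06), so that the 2 compounds reported as cyclin K degraders stood on opposite sides of THZ531. In the MYC network 9 of 14 tested genes were lower with dCeMM-3 and 2 higher: MXD1, a repressor that competes with MYC for MAX, was at -1.89 ± 0.12, MGA at -0.997 ± 0.08, and MAX itself did not pass (0.08 ± 0.06, FDR 0.35).

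Genes that MYC drives in making ribosomes were lower too. Of 38 MYC targets and ribosome biogenesis genes, 2 were higher and 27 lower (median -0.64). NOP56, a core protein of small nucleolar particles, had 82.9, 78.2 and 81.8 CPM with dCeMM-3, 399, 376 and 383 CPM with THZ531 and 408, 406 and 401 CPM with DMSO. NOP56 was level between THZ531 and DMSO on the TMM scale and stood apart with dCeMM-3 alone (log2 -2.25 ± 0.06, edgeR FDR 9.5e-28). NOP58, its partner, was at -1.34 ± 0.06 and DDX21, a nucleolar helicase, at -0.99 ± 0.06. The structural ribosomal protein genes did not follow: of 80 tested for the cytosolic ribosome, 1 was higher and 5 lower (median -0.04), although 18 were lower when dCeMM-3 replicate 2 was left out.

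The BCR-ABL1 kinase drives this leukaemia through STAT5, and 15 of 20 genes of that axis were lower with dCeMM-3, with 1 higher (median -0.94). PIM1, a survival kinase induced by STAT5, had 68.7, 65.7 and 68.5 CPM with dCeMM-3, 161, 159 and 149 CPM with THZ531 and 504, 548 and 525 CPM with DMSO (log2 -1.21 ± 0.06 between the compounds, edgeR FDR 4.3e-19). PIM1 was lowest with dCeMM-3 and highest with DMSO, without overlap. ID1, an inhibitor of helix-loop-helix factors, had 1.71, 2.07 and 1.99 CPM with dCeMM-3, 28.1, 25.4 and 24.99 CPM with THZ531 and 2.72, 3.97 and 3.26 CPM with DMSO, so that it was far above DMSO with THZ531 and below it with dCeMM-3 (13.7-fold between the compounds). Within the axis, ABL1 (-0.07 ± 0.10, FDR 0.62) and STAT5A (0.10 ± 0.08, FDR 0.30) did not pass, and STAT5B was higher with dCeMM-3 (0.69 ± 0.06, edgeR FDR 6.2e-12).

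Targets of p53, the stress-induced tumour suppressor, were also mostly lower, in a share close to that of the ERK feedback genes (80.0%). Of 37 tested, which include PLK2, PLK3 and BTG2 of the immediate early list, 2 were higher with dCeMM-3 and 30 lower (81.1%, beside 25.7% of all genes), 21 of them at least 2-fold, with a median of -1.36, and the counts were again the same without THZ531 replicate 1. CDKN1A, the cell cycle inhibitor p21 (chromosome 6, positions 36676460 to 36687339), had 33.3, 35.7 and 34.5 CPM with dCeMM-3, 482, 511 and 520 CPM with THZ531 and 19.7, 18.4 and 20.1 CPM with DMSO. All groups were separate and THZ531 was by far the highest; CDKN1A was 14.7-fold lower with dCeMM-3 than with THZ531 (log2 -3.87 ± 0.07, edgeR FDR 9.5e-33). Against DMSO it was at 0.84 with dCeMM-3 and 4.71 with THZ531 on the TMM scale. With spike-in scaling the dCeMM-3 value turned to -0.99, and that of THZ531 stayed positive at 2.86.

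Genes of the TNF receptor family on this list did not all move one way: TNFRSF10D, TNFRSF10B and EDA2R were lower with dCeMM-3 than with THZ531, and FAS was higher. TNFRSF10D, a decoy receptor for TRAIL, had 76.7, 77.7 and 82.6 CPM with dCeMM-3, 538, 519 and 524 CPM with THZ531 and 27.0, 29.2 and 27.98 CPM with DMSO. TNFRSF10B, the TRAIL receptor DR5, had 118, 114 and 122 CPM with dCeMM-3, 484, 475 and 476 CPM with THZ531 and 129, 134 and 126 CPM with DMSO. THZ531 was highest for both, and the differences between the compounds were -2.74 ± 0.06 for TNFRSF10D and -2.02 ± 0.06 for TNFRSF10B. With dCeMM-3, TNFRSF10D was at 1.49 against DMSO on the TMM scale and at -0.33 on the spike-in scale. FDXR, a mitochondrial reductase, had 9.01, 9.12 and 7.71 CPM with dCeMM-3, 64.1, 66.7 and 71.2 CPM with THZ531 and 19.1, 20.5 and 17.6 CPM with DMSO, and so lay on opposite sides of DMSO on the TMM scale (-1.17 with dCeMM-3 and 1.80 with THZ531; -2.98 and -0.04 with spike-in scaling). EDA2R, a receptor of the same family, summed to 1 count with dCeMM-3 and to 213 counts with THZ531 over 3 libraries each, a ratio scaled for depth of 220-fold lower with a 95% counting interval of 39.0 to 8725.

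Not every p53 gene differed. MDM2, the ligase that limits p53, was at -2.09 ± 0.12 and ZMAT3, an RNA-binding p53 target, at -1.52 ± 0.07, but CCNG1 (-0.05 ± 0.07, FDR 0.60), DDB2 (-0.12 ± 0.12, FDR 0.47), SESN2 (-0.23 ± 0.12, FDR 0.12), BBC3 (-1.03 ± 0.48, FDR 0.081) and GDF15 (0.51 ± 0.35, FDR 0.25) did not pass. FAS, a death receptor, was higher with dCeMM-3: it had 44.8, 44.5 and 45.8 CPM with dCeMM-3, 32.9, 28.5 and 30.3 CPM with THZ531 and 25.2, 21.8 and 22.6 CPM with DMSO (log2 0.56 ± 0.09, edgeR FDR 1.7e-06). The groups did not overlap, with dCeMM-3 highest on the TMM scale; with spike-in scaling FAS was at -0.85 against DMSO with dCeMM-3 and at -1.43 with THZ531. Over the 37 genes, 8 were higher and 21 lower than DMSO with dCeMM-3 (median -0.63), against 22 higher and 7 lower with THZ531 (median 0.73); on the spike-in scale these were 1 and 34 with dCeMM-3 and 5 and 26 with THZ531.

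Death receptors and caspases as a list were divided, with 8 of 24 tested genes higher and 8 lower, or 33.3% each. The shares of all genes were 19.1% and 25.7%. With spike-in scaling 6 of the list were higher and 3 lower. TNFSF10, the ligand TRAIL, went against TNFRSF10B and TNFRSF10D: it had 186, 195 and 188 CPM with dCeMM-3, 88.5, 84.8 and 77.0 CPM with THZ531 and 522, 455 and 462 CPM with DMSO (log2 1.18 ± 0.07, edgeR FDR 2.4e-17). TNFSF10 was below DMSO with both compounds, and lowest with THZ531. CASP10 was at 1.03 ± 0.12. In the BCL2 family 2 of 15 tested genes were higher (13.3%) and 4 lower (26.7%), beside 19.1% and 25.7% of all genes. MCL1, a short-lived survival protein's gene, was at -1.27 ± 0.10 and BCL2L1 at -1.01 ± 0.10. PMAIP1, the gene of NOXA, was close in both (-0.35 ± 0.09, FDR 0.0017, and FDR 0.34 with spike-in scaling).

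For DNA repair genes, the group best known to need CDK12, the number called depended on the scale and the median hardly did. Of 34 genes for homologous recombination and the DNA damage response, 9 were higher with dCeMM-3 and 5 lower (median 0.19). These were shares of 26.5% and 14.7%, beside 19.1% and 25.7% of all genes. With spike-in scaling 1 was higher and 2 were lower (median 0.22). On that scale 20.4% of all genes were called, beside 44.7% on the TMM scale. BRCA1 had 25.3, 23.9 and 32.3 CPM with dCeMM-3, 22.3, 16.7 and 17.3 CPM with THZ531 and 53.7, 48.3 and 56.2 CPM with DMSO. BRCA1 was below DMSO with both compounds and slightly higher with dCeMM-3 than with THZ531 (log2 0.54 ± 0.11, edgeR FDR 0.00012), a call that did not hold with spike-in scaling (FDR 0.056). ATR, the replication stress kinase, was at 0.31 ± 0.09 (FDR 0.0057; 0.26 with spike-in scaling) with overlapping libraries. RNF168, a ligase that marks damaged chromatin, was on the lower side at -1.08 ± 0.11. The list's count rests partly on dCeMM-3 replicate 3: without it 4 genes were higher. Against DMSO 4 were higher and 29 lower with dCeMM-3 (median -0.92), and 4 higher and 26 lower with THZ531 (median -1.15).

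Fanconi anaemia genes, which repair crosslinks, were higher in 6 of 20 cases (30%) and lower in 3 (15%), with a median of -0.02. Beside these stand 19.1% and 25.7% of all genes, and with spike-in scaling 2 of the 20 were higher and 1 lower. UBE2T at 0.93 ± 0.14 and ERCC4 at 1.29 ± 0.28 were among the higher ones, and USP1 at -1.24 on the log2 scale among the lower. FANCD2 did not pass (-0.07 ± 0.12, FDR 0.71). Of 42 DNA replication and E2F targets 10 were higher (23.8%) and 13 lower (31.0%), with a median of -0.02. These shares lie near those of all genes, 19.1% and 25.7%. PCNA, the sliding clamp, was an example of the lower ones: 165, 167 and 179 CPM with dCeMM-3, 383, 373 and 372 CPM with THZ531 and 237, 224 and 226 CPM with DMSO, between which dCeMM-3 stood below and THZ531 above DMSO on the TMM scale (-0.43 and 0.72; -2.24 and -1.13 with spike-in scaling).

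Mitosis genes were more often higher with dCeMM-3, in 16 of 33 tested cases (48.5%) against 6 lower (18.2%), with a median of 0.14. All genes had 19.1% higher and 25.7% lower. With spike-in scaling 7 mitosis genes were higher and none lower. HMMR, a spindle protein, had 51.1, 43.7 and 52.4 CPM with dCeMM-3, 27.3, 22.9 and 23.0 CPM with THZ531 and 69.9, 48.4 and 54.0 CPM with DMSO (log2 1.01 ± 0.11, edgeR FDR 1.5e-09). The dCeMM-3 libraries overlapped those of DMSO, and the THZ531 libraries lay below both. CDC25C, the phosphatase that starts mitosis, was at 1.07 ± 0.17, CENPA, the centromeric histone, at 0.80 ± 0.15 and AURKB at 0.69 ± 0.10. Among CDK inhibitors and G1 cyclins 5 of 22 were higher (22.7%, near the 19.1% of all genes) and 9 lower (40.9%, beside 25.7%). With spike-in scaling 1 was higher and 4 lower. CDKN1B, the inhibitor p27, was at -1.71 ± 0.11.

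Genes of long span were more often lower with dCeMM-3 than genes of short span. Of 427 protein-coding genes spanning over 300 kb, 18 (4.22%) were higher with dCeMM-3 and 167 (39.1%) lower, with a median of -0.23; of 2310 genes spanning under 10 kb, 445 (19.3%) were higher and 570 (24.7%) lower, with a median of -0.01. The class from 100 to 300 kb lay between, at 16.0% higher and 37.0% lower of 1961 genes. Against DMSO the medians from the shortest to the longest class were -0.18, -0.40, -0.45, -0.49 and 0.01 with dCeMM-3, and -0.10, -0.42, -0.41, -0.29 and 0.28 with THZ531, on the TMM scale. For each library, the median change from DMSO of genes of at least 100 kb minus that of genes under 20 kb was computed: it was -0.13 ± 0.0702 with dCeMM-3, from -0.188 to -0.0499, and 0.05 ± 0.0166 with THZ531, from 0.0346 to 0.0674 (log2, SD, n = 3 each). The dCeMM-3 and THZ531 groups did not overlap, and the exact two-sided permutation p was 0.1, the smallest that 3 against 3 allow. The dCeMM-2 libraries, at -0.192, -0.0875 and -0.140, overlapped those of dCeMM-3. The counts are of whole genes and do not show where along a gene the reads lie.

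**Figure D4:**
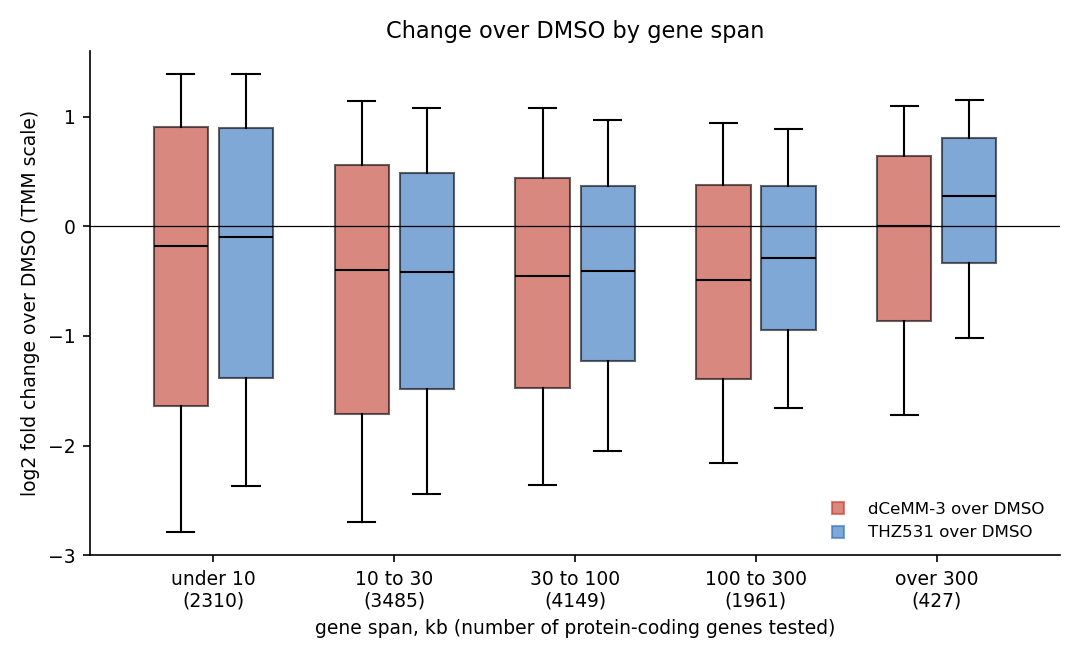
Log2 fold change over DMSO (TMM scale) of protein-coding genes in 5 classes of gene span, for dCeMM-3 and THZ531; boxes show quartiles and median, whiskers the 10th to 90th percentile. The 2 compounds have like medians in the short classes, and dCeMM-3 is lower in the classes from 100 to 300 kb (-0.49, against -0.29 with THZ531) and over 300 kb (0.01, against 0.28 with THZ531).

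The largest rise among protein-coding genes that met the naming rule was that of CXCL10, a chemokine induced by interferon (chromosome 4, positions 76021117 to 76023497). CXCL10 had 266, 253 and 263 CPM with dCeMM-3, 39.8, 40.3 and 36.4 CPM with THZ531 and 46.3, 43.7 and 48.7 CPM with DMSO. It stood alone above both other groups, 6.72-fold higher than with THZ531 (log2 2.75 ± 0.07, edgeR FDR 2.2e-28). Spike-in scaling put it at 0.68 over DMSO with dCeMM-3 and at -2.10 with THZ531. dCeMM-2 gave an intermediate 78.1, 78.8 and 78.2 CPM. Other interferon genes did not rise to that extent. Of 30 tested, 11 were higher with dCeMM-3 (36.7%, beside 19.1% of all genes) and 5 lower (16.7%, beside 25.7%), with a median of 0.11. With spike-in scaling 5 were higher and 1 lower, and without THZ531 replicate 1, 3 were lower.

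RSAD2, the antiviral enzyme viperin, had 101, 98.1 and 99.3 CPM with dCeMM-3, 45.3, 38.3 and 38.7 CPM with THZ531 and 227, 196 and 193 CPM with DMSO, and so was below DMSO with both and higher with dCeMM-3 than with THZ531 (log2 1.29 ± 0.08). OAS2, a sensor of double-stranded RNA, was at 0.70 ± 0.07. IFIT1 went the other way, at -0.86 ± 0.18.

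Other large rises included genes that THZ531 had lowered. DEPDC1, a proliferation-associated gene, had 46.2, 39.9 and 48.3 CPM with dCeMM-3, 11.7, 11.3 and 13.1 CPM with THZ531 and 45.5, 35.1 and 34.1 CPM with DMSO (log2 1.90 ± 0.12, edgeR FDR 1.9e-16). It overlapped DMSO with dCeMM-3 and lay below it with THZ531. TUBG1, gamma tubulin, had 18.9, 22.8 and 15.3 CPM with dCeMM-3, 4.84, 4.82 and 3.47 CPM with THZ531 and 32.8, 35.4 and 28.7 CPM with DMSO, a 4.31-fold difference between the compounds. STN1, a telomere replication factor, and LPCAT4, a phospholipid acyltransferase, were higher than DMSO with dCeMM-3 and lower with THZ531 on the TMM scale. STN1 had 39.1, 45.5 and 44.3 CPM with dCeMM-3, 13.1, 13.7 and 14.4 CPM with THZ531 and 18.4, 17.4 and 14.6 CPM with DMSO. The spike-in values against DMSO were -0.47 with dCeMM-3 and -2.14 with THZ531 for STN1, and -0.43 and -2.20 for LPCAT4, so the place of both above DMSO was one relative to other genes.

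The same opposite placement around DMSO, in the other direction, was seen on the TMM scale for BHLHE40, CXCR4, EMP1, FOXC1, ID1 and EDA2R, the 6 largest such differences. BHLHE40, a circadian and stress repressor, had 57.3, 59.6 and 56.1 CPM with dCeMM-3, 572, 535 and 549 CPM with THZ531 and 306, 333 and 314 CPM with DMSO, 9.58-fold lower with dCeMM-3 than with THZ531 (log2 -3.26 ± 0.07, edgeR FDR 7.9e-31). FOXC1, a forkhead factor, had 5.19, 4.77 and 6.12 CPM with dCeMM-3, 57.4, 45.3 and 46.1 CPM with THZ531 and 26.2, 20.7 and 19.7 CPM with DMSO. CXCR4, the receptor that holds blood progenitors in the marrow, had 0.592, 0.415 and 0.636 CPM with dCeMM-3 and 6.16, 4.39 and 5.68 CPM with THZ531 (log2 -3.25 ± 0.31). On the spike-in scale 4 of these genes were below DMSO with both compounds: BHLHE40 (-4.29 with dCeMM-3 and -1.05 with THZ531), FOXC1 (-3.84 and -0.66), CXCR4 (-4.51 and -1.29) and EMP1 (-4.43 and -1.21). ID1 (-2.62 with dCeMM-3 and 1.13 with THZ531) and EDA2R (-4.66 and 2.49) kept their opposite places. For EDA2R the place below DMSO rests on few reads, 1 count with dCeMM-3 and 12 counts with DMSO. The libraries of these groups overlapped, at 0.0658, 0 and 0 CPM with dCeMM-3 and 0.0578, 0.418 and 0.575 CPM with DMSO.

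Chaperones and protein turnover also leaned downward with dCeMM-3. Of 19 tested heat shock genes, 4 were higher and 14 lower (median -0.41). HSPA8, the constitutive HSP70, had 749, 869 and 786 CPM with dCeMM-3, 3286, 2952 and 2837 CPM with THZ531 and 6558, 6451 and 6246 CPM with DMSO, a graded order in which dCeMM-3 was 3.78-fold below THZ531 (edgeR FDR 2.1e-25). BAG3, its co-chaperone, was at -2.81 ± 0.11. HSF1, the factor that drives these genes, was higher with dCeMM-3 (0.65 ± 0.08). Of 35 tested ATF4 and unfolded protein response genes 4 were higher (11.4%) and 14 lower (40%). HSPA5, the chaperone BiP, was at -1.59 ± 0.06. Of 31 proteasome genes 5 were higher (16.1%) and 15 lower (48.4%), with a median of -0.16 and PSMD12 at -1.41 ± 0.10. Beside these stand 19.1% and 25.7% of all genes. NRF2 and glutathione genes were lower in 14 of 26 tested cases, 2 of them at least 2-fold, and higher in 1; TXNRD1, thioredoxin reductase, was at -0.85 ± 0.07.

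Genes that shorten other messages or answer to FOXO factors were also more often lower with dCeMM-3. Of 26 AU-rich decay and deadenylation genes 5 were higher and 15 lower (median -0.67); ZFP36L2, which binds AU-rich messages, had 16.5, 10.6 and 17.5 CPM with dCeMM-3, 97.4, 94.8 and 93.0 CPM with THZ531 and 119, 126 and 116 CPM with DMSO (log2 -2.65 ± 0.11). Of 17 FOXO targets 3 were higher and 11 lower (median -0.74). TXNIP, a brake on glucose uptake, had 138, 134 and 149 CPM with dCeMM-3, 721, 654 and 663 CPM with THZ531 and 201, 191 and 196 CPM with DMSO (log2 -2.28 ± 0.07), and CITED2, a transcriptional co-regulator, was at -3.07 ± 0.12. With THZ531, TXNIP was at 1.79 against DMSO on the TMM scale and at -0.05 on the spike-in scale. PIK3IP1, an inhibitor of PI3 kinase, was the clear exception, higher with dCeMM-3 at 16.8, 16.1 and 18.8 CPM, against 6.16, 6.93 and 5.91 CPM with THZ531. NFKB1 was at -2.11 ± 0.08 within a divided NF-kB list, with 6 of 25 tested genes higher (24%) and 11 lower (44%). NFIL3 was at -2.29 ± 0.14 among clock genes, with 2 of 15 tested higher (13.3%) and 7 lower (46.7%). All genes had shares of 19.1% and 25.7%.

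Metabolic and lineage genes were more mixed. None of 13 mitochondrially encoded messages passed (edgeR; median 0.17): MT-CYB, for instance, had 9152, 16020 and 11967 CPM with dCeMM-3, 12740, 8160 and 8109 CPM with THZ531 and 2937, 3466 and 3790 CPM with DMSO, so that the libraries of the 2 compounds overlapped. MT-CYB was above DMSO with both on the TMM scale (1.87 with dCeMM-3 and 1.51 with THZ531), and on the spike-in scale it was at -0.00 and -0.31. Over all genes 19.1% were higher and 25.7% lower. Nuclear genes of oxidative phosphorylation were higher in 6 (11.8%) and lower in 11 (21.6%) of 51 cases (median -0.01, and 11 higher without dCeMM-3 replicate 3). Glycolysis and hypoxia genes were higher in 7 (21.9%) and lower in 12 (37.5%) of 32. Cholesterol and lipid genes were higher in 7 (25%) and lower in 9 (32.1%) of 28 tested (2 and 1 with spike-in scaling). Blood lineage factors were mixed, 7 higher (23.3%) and 12 lower (40%) of 30 tested. GATA2, a progenitor factor, was at -1.42 ± 0.09 and HOXA9 at -1.40 ± 0.09, whereas FLI1 was at 0.84 on the log2 scale.

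**Figure D5:**
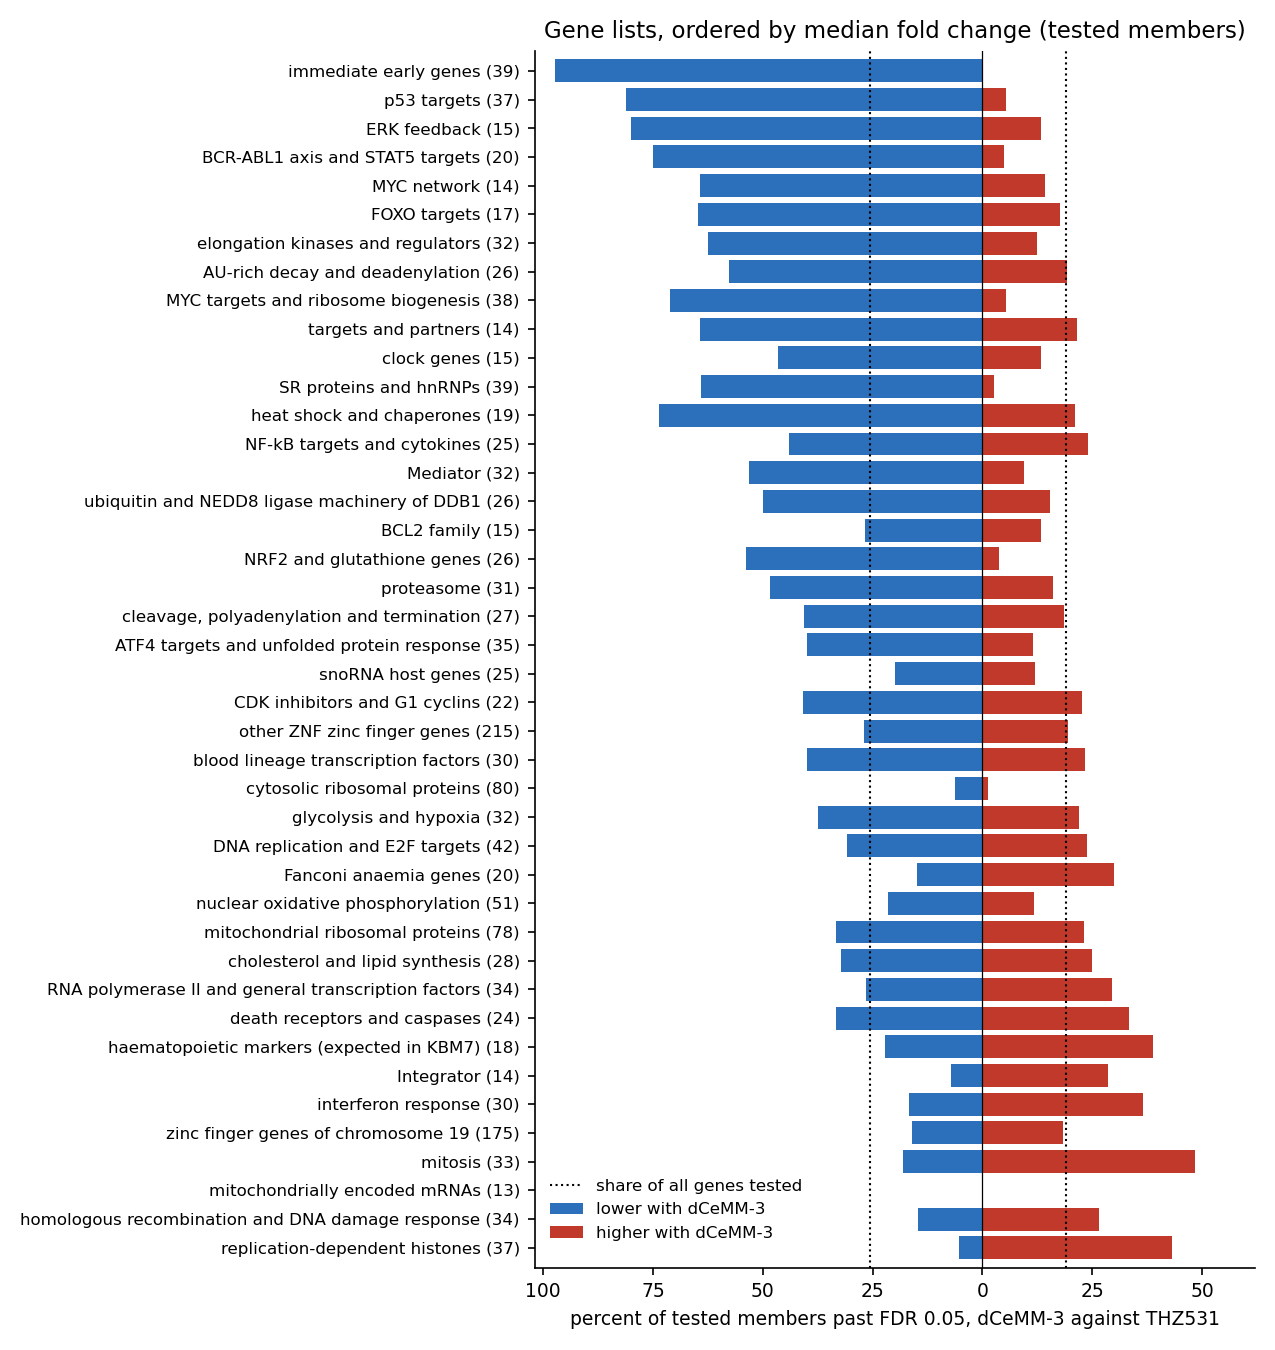
Percent of each list's tested members (number in brackets) that passed FDR 0.05 lower (bars to the left) or higher (bars to the right) with dCeMM-3 than with THZ531; lists are ordered by median fold change and dotted lines mark the share of all genes, 25.7% lower and 19.1% higher. Immediate early genes (97.4% lower) and p53 targets (81.1% lower) head the figure, and mitosis genes and histones have the longest bars on the higher side.

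The differences from THZ531 were not shared in full by dCeMM-2. Against THZ531, dCeMM-2 had 4569 genes called (30.3%), 3040 higher (20.2%) and 1529 lower (10.2%). Directly against dCeMM-2, dCeMM-3 had 6488 genes called (43.1%), 2480 higher (16.5%) and 4008 lower (26.6%). These contrasts share libraries with that of dCeMM-3 against THZ531, and are given side by side. For the immediate early genes dCeMM-2 was higher than THZ531 in 21 of 39 cases and lower in 1 (median 0.45), and dCeMM-3 was lower than dCeMM-2 in 38 (median -2.03). For p53 targets dCeMM-2 was higher than THZ531 in 9 and lower in 19 of 37 cases (median -0.34), and dCeMM-3 was lower than dCeMM-2 in 25 (median -0.84). For elongation genes dCeMM-2 was higher than THZ531 in 14 and lower in 4 of 32 cases.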

How the data were processed

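RNA was measured in 18 poly-A enriched libraries of KBM7 cells in 6 groups of 3, with ERCC and SIRV spike-in RNAs added. The authors' deposited files hold unnormalized read counts for each gene of a library, as their whole-number values show. The submitters' processing notes name Picard, Trimmomatic 0.32, STAR 2.5.2b, HTSeq 0.11.2 and the build GRCh38.p7, without roles. Strandedness and any handling of molecular identifiers are not given in the sources used here, and reads placed at several positions or on several genes were kept out of the gene counts, which lowers values of near-identical and overlapping genes. Symbols, gene types and positions came from GENCODE 29.

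All 18 libraries entered one edgeR 4.0.16 fit (with limma 3.58.1 in R 4.3.3; filterByExpr by group, TMM, robust quasi-likelihood, 12 residual degrees of freedom) on the endogenous genes, and each contrast was adjusted by Benjamini-Hochberg over the 15055 genes tested. The common dispersion was 0.00439. The fit was tested on simulated data. Single values per library were compared by exact two-sided permutation tests (SciPy 1.17.1), in which 3 against 3 cannot go below 0.1. Same-numbered replicates of dCeMM-3 and THZ531 did not correlate positively in their deviations from the group means, a check that cannot exclude pairing. No pairing was used in the main fit, and a run with the replicate number as a block is given below.

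The comparison and the 48 gene lists were chosen with earlier results of these data known, so lists are described by counts and medians beside those of all genes and carry no test of their own. Named genes are the 12 largest differences each way among protein-coding genes past FDR 0.05, with non-overlapping libraries and at least 5 CPM in the higher group; the 6 largest each way of those called on opposite sides of DMSO; 4 each way of non-coding genes; up to 4 members of each list by lowest FDR; and all genes listed as targets and partners. Other list members in the text were picked as examples after their values were seen. Promoter stretches are from the RefSeq table of GRCh38.p14. Alternatives were another tool (DESeq2 1.42.0), its size factors, spike-in scaling, a stricter filter and none, a fit of the 2 groups only, a replicate block and leaving out each library. A few genes are not reported here.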

Additional observations from a re-analysis of the deposited data

How the results depend on the processing

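Spike-in scaling was the choice that moved counts. For dCeMM-3 against THZ531 it gave 3069 genes called, 1015 higher and 2054 lower; against DMSO it gave 168 higher and 12608 lower with dCeMM-3, and 198 higher and 12748 lower with THZ531, of which 11562 genes were called at least 2-fold with THZ531. The amount of spike-in added per cell or per RNA is not given. Of the 213 genes named by the rule 194 were called, of which 169 kept their call and direction with it and 25 lost the call, among them DDB1, CUL4B, DCAF15, BRCA1, ATR, STAT2 and PMAIP1; none of the 194 turned direction in any alternative run.

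The other alternatives kept every count over all genes within 1.5 times the main one. For dCeMM-3 against THZ531, DESeq2 called 6393 genes, its size factors inside edgeR 6724, the filter of at least 5 CPM in 3 libraries 6349 (of 11019 tested), no filter 6042 (of 35976 tested) and the 2 groups alone 6005 (of 13580 tested). Leaving out a library gave 5941 to 6510 genes called, 2366 to 2706 higher, 3575 to 3804 lower and 1495 to 1600 at least 2-fold; the long minus short difference ran from -0.214 to -0.145, and the difference in mitochondrial share from 2.22 to 4.76 percentage points. The difference in spike-in share between the compounds, 0.0110 percentage points, ran from -0.0462 to 0.0462 and turned sign without THZ531 replicate 1 (-0.0462) and without dCeMM-3 replicate 2 (-0.0237). Against DMSO, leaving out a library gave 11805 to 12149 genes called with dCeMM-3 and 11533 to 11923 with THZ531. RBX1 and COL1A1 passed the threshold without THZ531 replicate 1 or dCeMM-3 replicate 2; ATR and BCL2L2 lost their calls without dCeMM-3 replicate 3, RPS27 without dCeMM-3 replicate 2, and RPS20 in the fit of the 2 groups.

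With the replicate number as a block, 6722 genes were called for dCeMM-3 against THZ531, 12179 for dCeMM-3 against DMSO and 11978 for THZ531 against DMSO, and no named gene changed its call. Same-numbered dCeMM-3 and THZ531 libraries correlated at -0.132, -0.0519 and -0.104 in their deviations from the group means. With 3 libraries per group such deviations are not independent, so these values cannot decide whether same-numbered samples share a culture or batch. Depth limits genes of a few CPM, where 1 library can decide a call.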

Other observations

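Replication-dependent histone genes, whose messages normally carry no poly-A tail, were higher with dCeMM-3 than with THZ531 in 16 of 37 tested cases and lower in 2 (edgeR, FDR 0.05; median 0.36), beside 19.1% and 25.7% of all genes; without dCeMM-3 replicate 3, 9 were higher. HIST1H2BD had 35.6, 42.4 and 40.1 CPM with dCeMM-3, 24.0, 20.8 and 21.3 CPM with THZ531 and 19.9, 19.2 and 17.6 CPM with DMSO, and differed by 0.83 ± 0.10 on the log2 scale. HIST2H2BE went the other way, with 45.7, 43.4 and 47.5 CPM with dCeMM-3, 69.9, 63.7 and 62.2 CPM with THZ531 and 12.1, 10.9 and 12.3 CPM with DMSO. Against DMSO, HIST2H2BE was at 1.97 with dCeMM-3 and 2.49 with THZ531 on the TMM scale (0.16 and 0.65 on the spike-in scale), and HIST1H2BD was at 1.04 and 0.20 (-0.77 and -1.62). RNU4-2, the U4 small nuclear RNA of the spliceosome, also without a poly-A tail, had 5.59, 2.80 and 8.34 CPM with dCeMM-3, 2.38, 1.93 and 1.97 CPM with THZ531 and 0.116, 0.0522 and 0.192 CPM with DMSO, and differed by 1.44 ± 0.28 between the compounds (edgeR FDR 5.6e-05).

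Sense intronic transcripts, annotated inside introns of other genes, were lower with dCeMM-3 than with THZ531 in 43 of 127 tested cases (33.9%, beside 25.7% of all genes) and higher in 3 (median -0.68). Per library, their median change from DMSO minus that of protein-coding genes was 0.53 ± 0.150 with dCeMM-3 and 0.90 ± 0.180 with THZ531 (log2, SD, n = 3 each; exact permutation p = 0.1, the smallest possible). The share of reads assigned to no gene feature was 5.24% ± 0.851 with dCeMM-3 and 7.15% ± 1.87 with THZ531 (exact permutation p = 0.3, n = 3 each). Its part in the intronic values was not tested. Protein-coding genes of 1 exon were higher in 23 of 219 cases (10.5%, beside 21.5% of all protein-coding genes tested) and lower in 63 (28.8%, near the 29.2% of all; median -0.16). Antisense genes were higher in 65 (11.4%) and lower in 36 (6.33%) of 569 cases (median 0.12; 44 and 38 without THZ531 replicate 1), where reads of the sense partner may be included. Of 428 lincRNAs 53 (12.4%) were higher and 40 (9.35%) lower, and the balance was not stable: 21 were higher and 24 lower with spike-in scaling, and 41 and 43 without THZ531 replicate 1. The shares of antisense genes and lincRNAs lie below those of all genes, 19.1% higher and 25.7% lower. MIR222HG, the host transcript of a microRNA pair, had 1.25, 1.45 and 1.67 CPM with dCeMM-3, 5.34, 7.72 and 6.62 CPM with THZ531 and 2.89, 3.65 and 4.60 CPM with DMSO; with THZ531, MIR222HG was at 0.90 against DMSO on the TMM scale and at -0.99 on the spike-in scale. HSPA8P1, a processed copy of HSPA8, was at -1.84 ± 0.12, beside -1.92 ± 0.06 for HSPA8 itself, and reads of the pair could be split between them. Of 175 tested zinc finger genes of chromosome 19, 32 were higher (18.3%) and 28 lower (16%), beside 19.1% and 25.7% of all genes. Of 78 mitochondrial ribosomal protein genes, 18 were higher (23.1%) and 26 lower (33.3%). In that list 10 were higher without dCeMM-3 replicate 2, and 11 without THZ531 replicate 1.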
